A study of Homo sapiens with 8 samples.

Results

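G1 cyclins and DNA replication genes were followed in CCRF-CEM and HPB-ALL, human lines of T cell acute lymphoblastic leukaemia (T-ALL), after lowering of the HMG-box protein TOX. The set holds 8 genes out of 14884 measured under a single symbol, found as the probe sets annotated to CCND2, CCND3, CCNE1, CLSPN, FEN1, MCM2, MCM5 and RRM2 (10 probe sets out of 53617). All 8 passed the filter on dim genes. They were picked with their values on these same arrays known, so those values are given as a description, and no p of theirs is read as evidence.

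The study holds 8 arrays, 4 of each of the established lines CCRF-CEM and HPB-ALL. In each line 1 array came from cells with the TOX hairpin shTOX-1, 1 from cells with shTOX-2, 1 from cells with a scramble hairpin and 1 from untransduced cells, for which the sources used here give no hairpin and no selection. The 6 transduced cultures were spinoculated with virus, selected with puromycin and kept for at least 2 weeks before total RNA was labelled for Affymetrix arrays. Values are log2 intensities as deposited. All groups stem from the same 2 lines and none is a fresh leukaemia or a normal T cell. With 1 array per line and construct, and no statement that the arrays stem from separate cultures, p-values reflect array-to-array spread alone, and that spread may be partly technical.

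Passage from G1 into S phase is driven by cyclins bound to cyclin-dependent kinases. D-type cyclins (CCND2, CCND3) join CDK4 and CDK6 and cyclin E (CCNE1) joins CDK2; together they phosphorylate the retinoblastoma protein, which frees E2F factors to switch on the genes of DNA replication. MCM2 and MCM5 are subunits of the ring-shaped MCM2-7 helicase that is loaded at origins, CLSPN (claspin) links the moving fork to the ATR and CHEK1 checkpoint, FEN1 trims the flaps of Okazaki fragments, and RRM2 is the small subunit of ribonucleotide reductase, which makes deoxyribonucleotides. CCND3 is known as the D-type cyclin that immature thymocytes need for expansion, and NOTCH signalling, active in most T-ALL, feeds into its expression.

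RefSeq promoter windows of GRCh38.p14, each 300 bases long (250 before a transcript start and 50 from it), were matched for 6 of the 8 genes, in 9 windows. They were searched on both strands for E2F words (TTTCCCGC, TTTGGCGC, TTTCGCGC or TTTGCCGC), the CCAAT box (CCAAT), the CHR element (TTTGAA or TTCGAA) and the E-box (CACGTG). An E2F word, found in 3.31% of all 35116 windows, was present at CLSPN and MCM2. The CCAAT box, found in 34.6% of all windows, was present in 5 windows, of CLSPN, RRM2 and CCND3, with 3 copies each in CLSPN and in the window of the downstream RRM2 start. The E-box, found in 7.26% of all windows, was present at MCM2 and FEN1, and CHR words, found in 16.4%, were in none. The CCNE1 window held none of these words. The stretches below show some of those matches in 4 of the genes that stood higher in transduced arrays. Capitals mark the matched words, which for a match on the other strand appear as the reverse complement (ATTGG for CCAAT). At MCM2 both strands carry an E2F word, so that the 2 words overlap, and the E-box reads the same on both strands. In GRCh38.p14 the genes lie at chr1:35720213-35769978 (CLSPN), chr2:10122568-10211010 (RRM2), chr3:127598411-127622436 (MCM2), chr6:41934933-42050035 (CCND3), chr11:61792911-61797238 (FEN1), chr12:4273762-4305353 (CCND2), chr19:29811991-29824312 (CCNE1) and chr22:35400140-35455031 (MCM5). A match is a run of letters and not evidence of binding.
CLSPN, chr1:35770014-35770103, minus strand, bases -125 to -36 from the start: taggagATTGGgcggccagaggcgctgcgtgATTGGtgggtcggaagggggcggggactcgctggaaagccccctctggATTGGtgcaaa
CLSPN, chr1:35769967-35769996, minus strand, bases -18 to 12: ccactctggctggGCGGGAAAgcaagaaca
RRM2, chr2:10122639-10122668, plus strand, bases -100 to -71: ggcacagCCAATgggaagggccggggcacc
MCM2, chr3:127598398-127598427, plus strand, bases -13 to 17: gtCACGTGaaccactTTTCGCGCGAAAcct
FEN1, chr11:61792866-61792910, plus strand, bases -45 to -1: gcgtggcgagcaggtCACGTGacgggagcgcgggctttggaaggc

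The targeted gene was lower in every shTOX array than in the controls of its line. TOX stood at 10.65 (shTOX-1) and 9.86 (shTOX-2) in CCRF-CEM against 11.03 with scramble and 11.03 untransduced. In HPB-ALL it stood at 10.16 and 8.75 against 10.59 with scramble and 10.64 untransduced. Across the 8930 tested genes, which are not independent replicates, Pearson r was 0.949 to 0.985 within a line and 0.876 to 0.908 between lines. Of 12 T cell identity genes, 7 were measured under their symbol and 6 passed the filter (log2 5.18); LCK lay at 9.74 to 9.98 in CCRF-CEM and 7.11 to 7.83 in HPB-ALL, whereas CD28 in HPB-ALL (4.61 to 4.84) and the mean of CD2 lay under the filter level. Among markers of other cell types, 7 genes passed the filter. Summed over each list on the linear scale and taken to log2, the B cell markers were at 5.99 to 6.39 in transduced and 5.98 to 6.07 in untransduced arrays, the myeloid markers at 6.13 to 8.32 and 6.19 to 6.43, and the NK cell markers at 6.15 to 6.997 and 6.04 to 6.73. The erythroid and megakaryocyte markers were at 6.85 to 7.19 in transduced and 6.92 to 6.99 in untransduced arrays, and the fibroblast and epithelial markers at 7.84 to 8.11 and 8.05 to 8.49. The wide myeloid range came from MPO in HPB-ALL, which was 5.10 with shTOX-1, 7.94 with shTOX-2, 7.03 with scramble and 4.83 untransduced. The part of MPO-expressing cells in the results below was not tested.

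CCNE1 and the 5 replication genes stood higher in all transduced arrays than in the untransduced array of the same line. CCND3 ran the other way and CCND2 did not follow. In RNA from whole cultures, a larger share of cells in S phase and more of these transcripts per cell cannot be told apart. Virus, puromycin and the time kept afterwards are given for the transduced cultures only, so these cannot be told apart either. CCNE1 had log2 levels of 9.27, 8.54 and 8.36 in the shTOX-1, shTOX-2 and scramble arrays of CCRF-CEM, against 6.61 in its untransduced array. In HPB-ALL it was at 7.55, 8.30 and 7.31 in these arrays, against 6.66 untransduced. The transduced arrays thus lay above the untransduced array in both lines without overlap, by 2.11 on average in CCRF-CEM and by 1.06 in HPB-ALL; over both lines the difference was 1.59 ± 0.32 (standard error), or 3.01-fold.

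CLSPN was at 8.30, 8.40 and 8.35 in the shTOX-1, shTOX-2 and scramble arrays of CCRF-CEM against 7.23 untransduced. The HPB-ALL arrays read 8.20, 8.79 and 7.87 against 7.25. The groups did not overlap, and the difference was 1.08 ± 0.20, or 2.11-fold. FEN1, at 8.91, 8.93 and 8.92 against 7.78 in CCRF-CEM and at 8.36, 8.67 and 8.33 against 7.45 in HPB-ALL, differed by 1.07 ± 0.13. In CCRF-CEM its 3 transduced arrays lay close together, with a standard deviation of 0.00993, so that the untransduced array was the one that stood apart.

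The helicase subunits differed less. MCM2 was at 9.94, 9.76 and 9.68 in the shTOX-1, shTOX-2 and scramble arrays of CCRF-CEM against 8.84 untransduced, and at 9.33, 9.54 and 9.49 against 8.82 in HPB-ALL, a difference of 0.80 ± 0.13 over both lines. MCM5 was at 10.44, 10.51 and 10.37 against 9.70 in CCRF-CEM and at 10.17, 10.56 and 10.00 against 9.65 in HPB-ALL, a difference of 0.66 ± 0.15. The groups did not overlap for either gene. RRM2, with 10.27, 10.26 and 10.41 against 9.55 in CCRF-CEM and 9.72, 9.74 and 9.73 against 8.998 in HPB-ALL, differed by 0.75 ± 0.11, and by nearly the same amount in CCRF-CEM (0.76) and HPB-ALL (0.73).

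Among the D-type cyclins, CCND3 lay lower in all transduced arrays. In CCRF-CEM it was at 8.28, 8.25 and 8.27 in the shTOX-1, shTOX-2 and scramble arrays against 8.72 untransduced, and in HPB-ALL at 6.95, 7.59 and 7.56 against 7.83. The groups did not overlap, and the difference of -0.46 ± 0.17 was of the same size in both lines (-0.45 in CCRF-CEM and -0.46 in HPB-ALL). That likeness rests on the low HPB-ALL shTOX-1 array. Without it the difference over both lines was -0.36, and that of CCRF-CEM minus that of HPB-ALL was -0.21. CCND2 was at 5.06, 4.96 and 4.65 against 4.75 in CCRF-CEM and at 6.97, 7.05 and 7.09 against 6.98 in HPB-ALL; transduced and untransduced arrays overlapped in both lines and the difference was 0.10 ± 0.13.

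**Figure D1:**
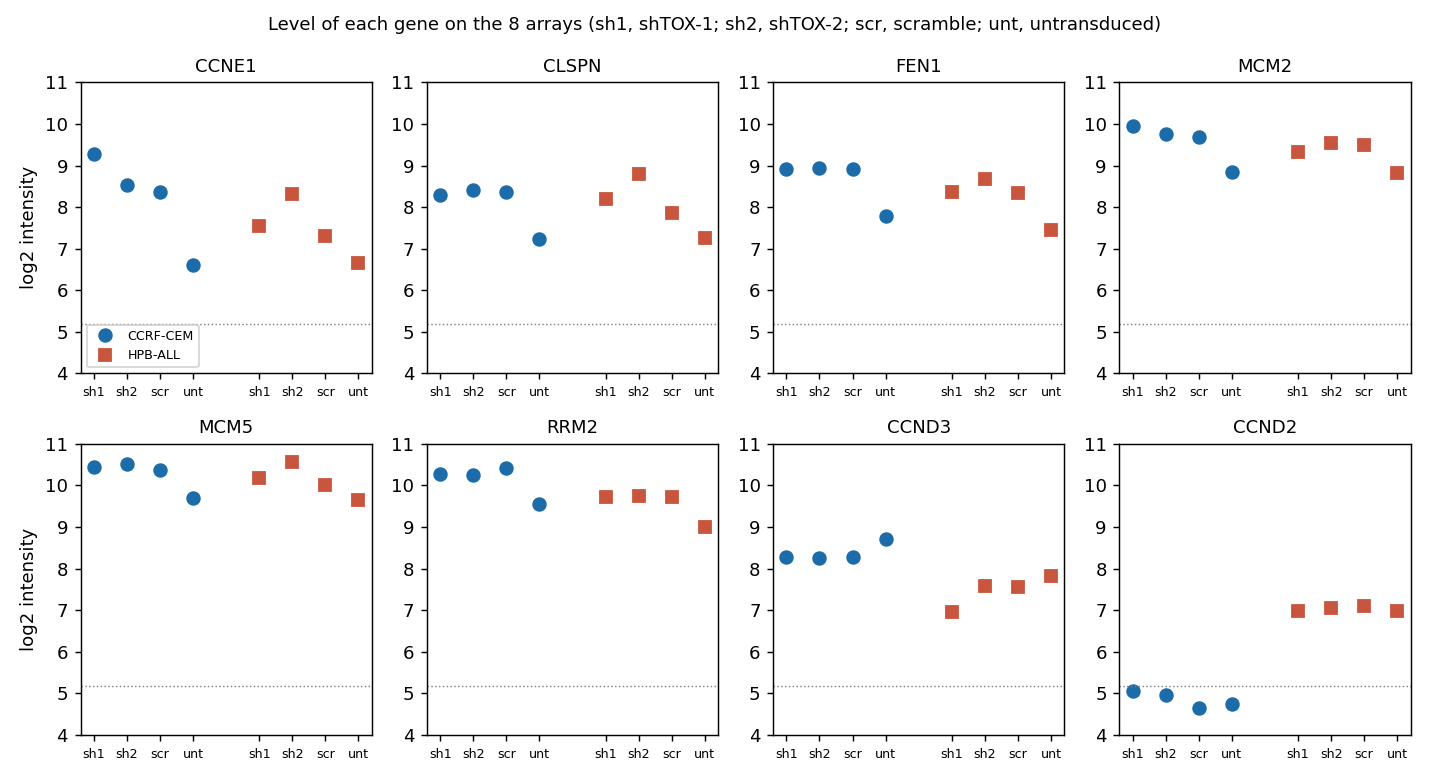
Log2 intensity of the 8 genes on each array, 1 point per array, with CCRF-CEM as circles and HPB-ALL as squares; the dotted line is the filter level of 5.18. The untransduced array is the lowest of its line for CCNE1, CLSPN, FEN1, MCM2, MCM5 and RRM2 and the highest for CCND3, and CCND2 lies under the filter level on all 4 CCRF-CEM arrays.

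Counted over the set, 6 of the 8 genes lay above the untransduced array in both lines without overlap, where 20.5% of all tested genes did, and 1 (CCND3) lay below, where 16.7% did. In a limma fit of the 6 transduced against the 2 untransduced arrays with line as a term, the same 6 passed an adjusted p of 0.05 as higher and 0 as lower, beside 5.97% and 5.05% of the 8930 genes (11% in all, and 28.3% at an unadjusted p under 0.05); the genes were chosen with this contrast known, so nothing is read from that count. The median difference was 0.77 in the set and 0.03 over all genes tested. The calls rest on few untransduced arrays: without the CCRF-CEM untransduced array 0 of the 8 passed and 12 genes in all, against 984 with every array, and without the HPB-ALL one 4 of the 8 and 307 genes in all. A count of 633 genes was left without the CCRF-CEM shTOX-2 array.

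**Figure D2:**
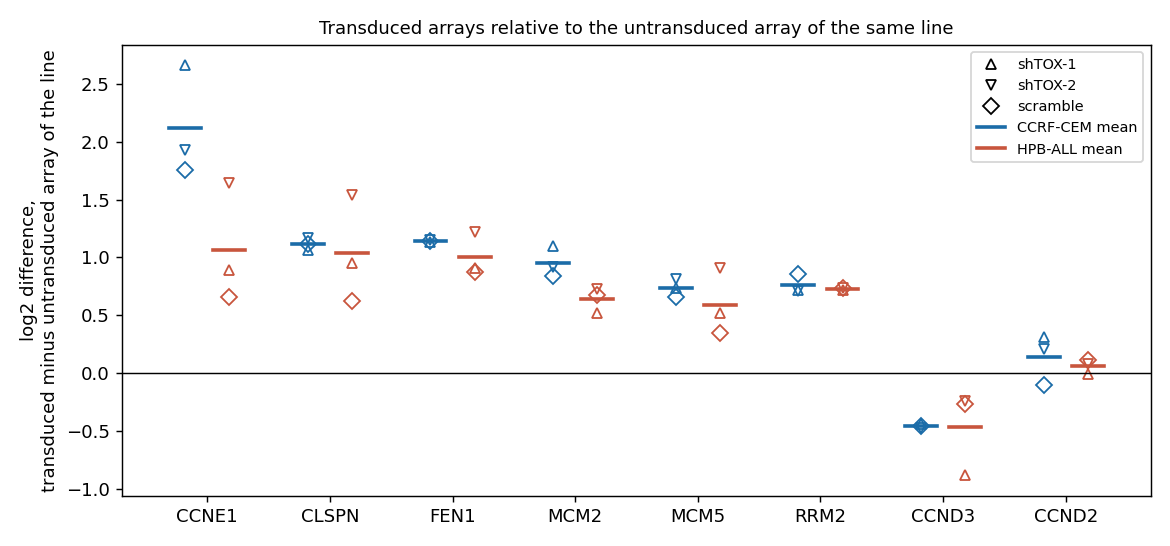
Log2 difference of each transduced array from the untransduced array of its line (y axis), for each gene and line; symbols mark the construct and bars the mean of the 3 transduced arrays. CCNE1 shows the widest spread, with a mean of 2.11 in CCRF-CEM and 1.06 in HPB-ALL, and CCND3 is below 0 in both lines.

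The untransduced arrays of the lines lay close together for several of these genes. The gap of CCRF-CEM over HPB-ALL was -0.05 for CCNE1, -0.01 for CLSPN, 0.03 for MCM2 and 0.05 for MCM5 in untransduced arrays. In the means of the transduced arrays the gap was 1.00 for CCNE1, 0.07 for CLSPN, 0.34 for MCM2 and 0.20 for MCM5. With all arrays the difference of transduced from untransduced arrays was higher in CCRF-CEM than in HPB-ALL for 8 of 8 genes (49.8% of all tested), by 1.05 ± 0.58 for CCNE1 and by 0.00 to 0.31 for the others. Leaving out 1 transduced array turned this gap negative for CCND3 (to -0.21), CLSPN (to -0.13), RRM2 (to -0.01) and CCND2 (to -0.00334). In limma 0 of the 8 passed for it, beside 0.0672% of all tested genes (0.0112% higher, 0.056% lower and 4.76% at an unadjusted p under 0.05), and nothing is read from that count; with 1 untransduced array per line the fit borrows the spread of the transduced arrays.

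Genes that work beside these 8 were tested as lists that leave the 8 out. Of 127 such genes, 75 were measured under their symbol and 73 were tested; in limma 23 rose in transduced against untransduced arrays and 0 fell (31.5% higher, beside 5.97% of all tested), and 63 of 73 had a positive difference, where 54.2% of all genes did. Their median was 0.35. In 39 of the 73 the transduced arrays of both lines lay above the untransduced one without overlap, where 20.5% of all genes did, and in 4 they lay below. Without the CCRF-CEM untransduced array 0 of the 73 passed as higher, and 6 without the HPB-ALL one. These lists were drawn up with earlier results on S phase genes of these arrays known.

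Upstream in G1, the other cyclins, kinases and CDC25A were positive in 7 of 7 genes (median 0.23). The second E-type cyclin, CCNE2, was at 0.23 ± 0.18, and its transduced HPB-ALL arrays lay on both sides of the untransduced one. The S phase cyclin CCNA2 rose 2.04-fold (1.03 ± 0.15; adjusted p = 0.00474) and CDC25A, the phosphatase that activates CDK2, 1.85-fold (0.89 ± 0.12; adjusted p = 0.00445), and the other 5 did not pass. Of the RB and E2F family 2 of 15 rose, MYBL2, an E2F target and partner of the MuvB complex (0.86 ± 0.14), and TFDP1, the dimer partner of E2F (0.46 ± 0.13), with a list median of 0.12. Of the genes that turn over G1 cyclins and inhibitors, the scaffold CUL1 rose (0.43 ± 0.12; limma adjusted p = 0.0476), as 1 of 5. SKP1 had the only negative difference of these 5, at -0.71 ± 0.20, and did not pass (limma adjusted p = 0.0517). Of the CDK inhibitors only CDKN2A was measured under its symbol, at 4.03 to 4.46, too dim to be tested.

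At origins, 3 of 7 licensing genes rose. They were CDC6, which loads the helicase (0.66 ± 0.14), and the helicase subunits MCM3 (0.57 ± 0.14) and MCM4 (0.50 ± 0.12), so that MCM3 and MCM4 had positive differences like MCM2 and MCM5. The remaining subunits, MCM6 (0.24 ± 0.14) and MCM7 (0.14 ± 0.14), had smaller positive differences and did not pass. Of 13 firing genes 6 rose, with MCM10 (0.79 ± 0.13; adjusted p = 0.00787), TICRR (0.75 ± 0.12), RECQL4 (0.74 ± 0.15) and DBF4B (0.60 ± 0.13) the largest. Of 34 listed genes of DNA polymerases and fork proteins only 7 were measured and tested, and none of these is a polymerase; 4 of them rose, led by UHRF1 (0.67 ± 0.13), a reader of newly replicated DNA, DSCC1 (0.64 ± 0.16), the maintenance methyltransferase DNMT1 (0.58 ± 0.12) and WDHD1 (0.50 ± 0.11). In nucleotide supply 3 of 7 rose: thymidylate synthase TYMS (0.69 ± 0.12), RRM1, the large subunit that pairs with RRM2 (0.65 ± 0.13), and the thymidylate kinase DTYMK (0.51 ± 0.11). The checkpoint list, around CLSPN, was split, with 7 of 12 positive and a median of 0.05; TIMELESS, a fork protein that works with claspin (0.60 ± 0.13), and the kinase CHEK2 (0.59 ± 0.14) rose.

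Mitotic genes moved with these groups. All 20 tested genes of G2 and mitosis rose in transduced arrays (median 0.73), beside 5.97% of all tested genes. Among them were KIF20A (1.32 ± 0.12), CCNF (1.29 ± 0.17), CCNB1 (1.27 ± 0.17) and BIRC5 (1.15 ± 0.14). Of the 20, 2 passed without the CCRF-CEM untransduced array and 11 without the HPB-ALL one. T cell identity genes were negative in 6 of 6 (median -0.43), where 54.2% of all genes were positive, and 0 passed in limma; CD7 had the smallest p, at -0.68 ± 0.26 (adjusted p = 0.111). The difference was not one of transduction alone. The 6 were also negative for scramble against untransduced (median -0.20) and for shTOX against scramble (median -0.29), with 0 passing in either.

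**Figure D3:**
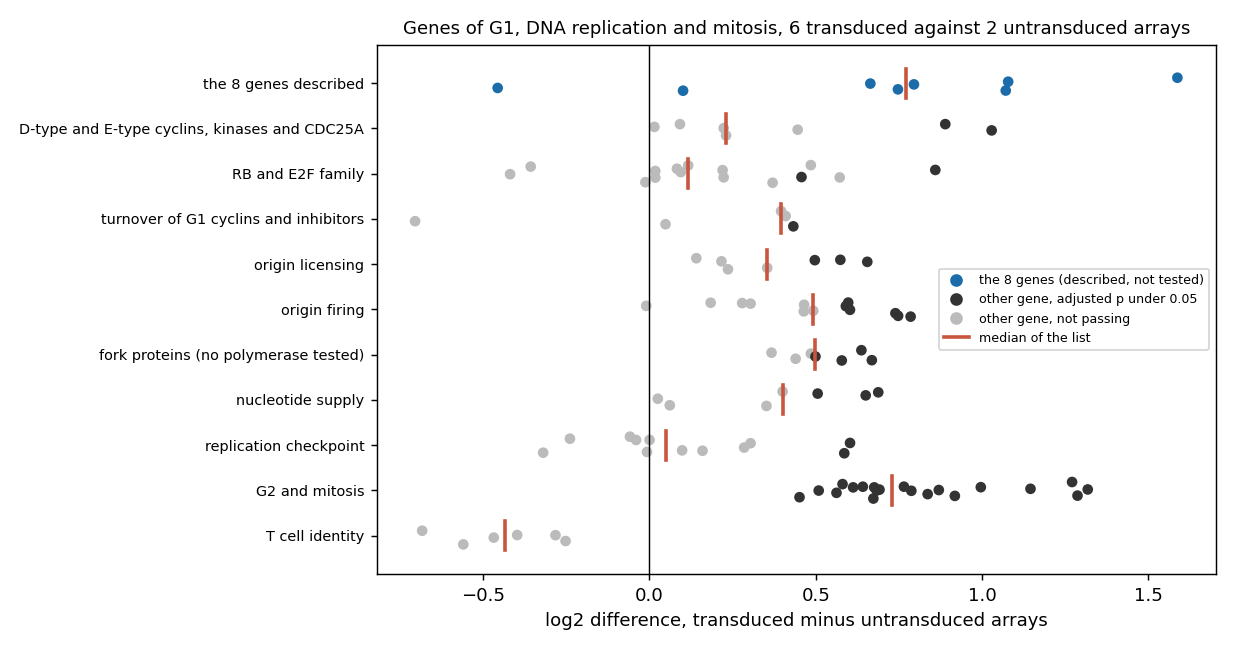
Log2 difference of the 6 transduced from the 2 untransduced arrays for each tested gene (points), by list, with the 8 genes left out of the other lists and the list median as a bar. Dark points passed limma at an adjusted p under 0.05: 23 of the 73 genes around the 8 described and all 20 of G2 and mitosis. Over all tested genes 5.97% passed as higher.

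The scramble arrays, which carry no TOX hairpin, stood above the untransduced arrays for CCNE1 and the 5 replication genes. For CCNE1 the scramble array lay above the untransduced one by 1.75 (CCRF-CEM) and 0.66 (HPB-ALL). For these 5, in the same order of lines, the difference was 1.12 and 0.62 for CLSPN, and 1.14 and 0.88 for FEN1. For MCM2 it was 0.84 and 0.68, for MCM5 0.66 and 0.35, and for RRM2 0.86 and 0.73. CCND3 lay the other way, at -0.45 and -0.26, and CCND2 was at -0.10 and 0.11. Averaged over the lines, of the 8 genes 7 were positive (CCND2 by only 0.01), where 53.4% of all genes were, and the median of the set was 0.78, with 0.02 over all genes. In limma FEN1 and RRM2 passed in this comparison (2 of 8, beside 0.582% of all tested genes as higher, 0.482% as lower, 1.06% in all and 17.5% at an unadjusted p under 0.05), with nothing read from it, and of the 73 genes around them CCNA2 (1.03 ± 0.19) and CDC25A (0.78 ± 0.15) rose. Both calls were lost without the CCRF-CEM shTOX-2 or the CCRF-CEM untransduced array, where 0 genes passed as higher. Leaving out any of CCRF-CEM scramble, CCRF-CEM shTOX-2, either untransduced or the HPB-ALL scramble array brought the number of the 8 passing to 0, and leaving out either HPB-ALL shTOX array to 1.

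The scramble arrays also went through transduction and puromycin, and from them the shTOX arrays differed little for most of the set. CCNE1 had the largest difference, 0.58 ± 0.30: shTOX-1 and shTOX-2 lay above scramble by 0.91 and 0.18 in CCRF-CEM and by 0.23 and 0.99 in HPB-ALL. The hairpin with the larger CCNE1 difference was therefore not the same in the lines. TOX stood lower with shTOX-2 in both. With 1 array per line and hairpin, a relation of CCNE1 to the TOX level was not tested. CLSPN (0.31 ± 0.20) and MCM5 (0.24 ± 0.15) lay above scramble in HPB-ALL by 0.92 and 0.55 with shTOX-2 and by 0.33 and 0.17 with shTOX-1; in CCRF-CEM the 4 differences of these genes were -0.05 to 0.15. These values rest on the scramble arrays: without the HPB-ALL one they were 0.37 for CCNE1, 0.02 for CLSPN and 0.10 for MCM5, and without the CCRF-CEM one 0.78, 0.60 and 0.37.

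FEN1 (0.10 ± 0.14), MCM2 (0.06 ± 0.14) and RRM2 (-0.07 ± 0.12) differed from scramble on average by less than their standard errors. Single arrays varied more. With shTOX-1 and shTOX-2, FEN1 was at -0.01 and 0.01 in CCRF-CEM and at 0.03 and 0.35 in HPB-ALL. MCM2 was at 0.26 and 0.08 in CCRF-CEM and at -0.16 and 0.05 in HPB-ALL. For CCND3 the difference was -0.15 ± 0.18, of which nearly all came from the HPB-ALL shTOX-1 array at -0.62; without that array it was -0.00317, and -0.02 without the HPB-ALL scramble array. CCND2 differed by 0.14 ± 0.14, and by -0.04 without the CCRF-CEM scramble array. Of the 8 differences 6 were positive, where 53.8% of all genes were, and the median was 0.12 in the set and 0.02 over all genes. No gene passed in limma, of the set, of the 73 around it or of all 8930 (0% called; 459 genes, or 5.14%, had an unadjusted p under 0.05). The 73 had 49 positive differences and a median of 0.04.

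**Figure D4:**
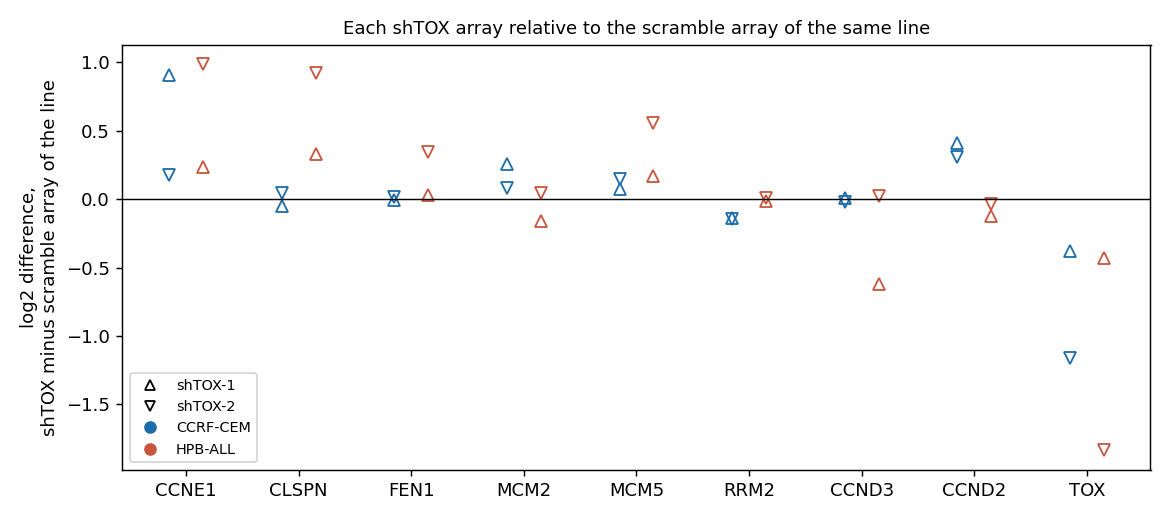
Log2 difference of each shTOX array from the scramble array of its line (y axis) for the 8 genes and for TOX, with triangles up for shTOX-1 and down for shTOX-2, and CCRF-CEM in blue and HPB-ALL in red. CCNE1 is above 0 in all 4 arrays and RRM2 lies between -0.15 and 0.01, while TOX reaches -1.16 in CCRF-CEM and -1.84 in HPB-ALL.

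When scramble and untransduced arrays were pooled as controls, 7 of 8 differences were positive, where 54.7% of all genes were, with a median of 0.46 and 0.03 over all genes. They were 1.18 ± 0.36 for CCNE1, 0.75 ± 0.25 for CLSPN, 0.60 ± 0.25 for FEN1, 0.49 ± 0.17 for MCM5, 0.44 ± 0.21 for MCM2, 0.32 ± 0.20 for RRM2, 0.14 ± 0.12 for CCND2 and -0.33 ± 0.17 for CCND3. Without both untransduced arrays they became the values against scramble given above, and that of RRM2 changed sign. Both shTOX arrays lay above both controls in each line for CCNE1 and MCM5 (2 of 8, beside 6.36% of all genes), and below them for 0 of 8 (4.99%). No gene passed in limma (0% called; 1277, or 14.3%, had an unadjusted p under 0.05). The shTOX difference of the lines, taken as CCRF-CEM minus HPB-ALL, was 0.48 ± 0.76 for CCNE1 and -0.38 ± 0.52 for CLSPN. Leaving out 1 CCRF-CEM control array turned both, to -0.40 for CCNE1 without the untransduced and to 0.18 for CLSPN without the scramble array. With all arrays it was positive for 4 of 8, where 47.1% of all genes were, and no gene of the set or of all tested passed (0% called; 410, or 4.59%, had an unadjusted p under 0.05).

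Between the hairpins, the difference of shTOX-2 from shTOX-1 was 0.34 ± 0.21 for CLSPN, 0.30 ± 0.19 for CCND3, 0.23 ± 0.16 for MCM5 and 0.17 ± 0.15 for FEN1, and 0.01 for CCNE1, MCM2 and RRM2. CCND2 was at -0.01. The count of positive values (7 of 8, where 41.5% of all genes were) includes the 3 at 0.01. Leaving out 1 shTOX array moved CCNE1 to -0.64 or 0.67 and MCM2 to -0.22 or 0.24, turned RRM2 to -0.03, and brought CCND3 down to 0.01, CLSPN to 0.05, FEN1 to 0.05 and MCM5 to 0.10. No gene passed in limma (0% called; 596, or 6.67%, had an unadjusted p under 0.05), and each line had 1 array per hairpin. Around the set the smallest p belonged to the deoxycytidine kinase DCK (-0.87 ± 0.14; limma adjusted p = 0.283) and the repressor E2F8 (0.75 ± 0.14; limma adjusted p = 0.297), so neither passed.

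Among the 8 genes, the lines differed most in CCND2 and CCND3. CCND2 lay at 4.86 ± 0.19 in CCRF-CEM and 7.02 ± 0.06 in HPB-ALL (SD, n = 4 arrays each), a difference of -2.16 ± 0.12. All 4 CCRF-CEM arrays were under the filter level of 5.18, so background limits the size of this difference. The second CCND2 probe set, at 4.34 to 4.56 in CCRF-CEM and 4.91 to 5.08 in HPB-ALL, was dim throughout but lay on the same side, and with the mean of both probe sets the difference was -1.36. CCND3 was at 8.38 ± 0.23 in CCRF-CEM and 7.48 ± 0.38 in HPB-ALL (SD, n = 4 arrays each), a difference of 0.90 ± 0.17. Neither gene overlapped between the lines, CCND3 above (beside 12.8% of all genes) and CCND2 below (beside 14.2%). In untransduced arrays alone the gaps were -2.23 for CCND2 and 0.89 for CCND3, about as large as over all arrays. The remaining D-type cyclin, CCND1, did not pass (0.20; limma adjusted p = 0.25).

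The lines overlapped for the other 6 genes, with differences of 0.74 ± 0.36 for CCNE1, 0.57 ± 0.20 for RRM2, 0.43 ± 0.25 for FEN1, 0.26 ± 0.21 for MCM2, 0.16 ± 0.17 for MCM5 and 0.05 ± 0.25 for CLSPN. Leaving out 1 CCRF-CEM control array moved these to 0.44 (without scramble) or 1.14 (without untransduced) for CCNE1, 0.20 or 0.65 for FEN1, 0.12 or 0.46 for MCM2, 0.02 or 0.28 for MCM5, and -0.21 or 0.23 for CLSPN. This fit had no term for transduction, so the gap between transduced and untransduced arrays is part of the overlap and of these standard errors. Matched by construct, CCRF-CEM lay higher throughout for RRM2, FEN1 and MCM2, but not for CCNE1, MCM5 and CLSPN. The gap of RRM2 was 0.58 in the transduced means and 0.55 untransduced, and that of FEN1 0.46 and 0.33. In limma CCND3 passed as higher and CCND2 as lower in CCRF-CEM, beside 12.4% and 14.9% of all tested genes (27.4% in all, and 38.9% at an unadjusted p under 0.05; 49.3% were positive), with nothing read from it. Of the 73 genes around the set 8 were higher and 7 lower in CCRF-CEM. Both shares lay below the 12.4% and 14.9% of all tested genes, so the genes named next are a description only. The E-type cyclin CCNE2 (0.71 ± 0.17) and CDK6, the partner of D-type cyclins (0.51 ± 0.16), were higher, as were E2F2 (0.93 ± 0.22), LIN54 (0.58 ± 0.10) and E2F7 (0.50 ± 0.16), the licensing factor CDT1 (0.47 ± 0.14), DCK (0.70 ± 0.22) and DTYMK (0.59 ± 0.15). Lower were CHEK2 (-0.89 ± 0.19), RRM2B, the p53-inducible small subunit related to RRM2 (-0.89 ± 0.17), CUL1 (-0.70 ± 0.14), SKP1 (-0.69 ± 0.20), the firing factor DONSON (-0.67 ± 0.13), HUS1 (-0.61 ± 0.13) and CKS2 (-0.45 ± 0.15).

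Within lines the 6 genes ran in parallel over all 8 arrays. After subtraction of each line's mean, the Pearson r between pairs of CCNE1, CLSPN, FEN1, MCM2, MCM5 and RRM2 was 0.83 to 0.99, while that of CCND3 with these genes was -0.72 to -0.55. These values share arrays and rest on the 2 untransduced arrays: over the 6 transduced arrays most of these correlations were lost. There r was 0.17 to 0.36 for MCM2 with CLSPN, MCM5 and FEN1, -0.46 to 0.08 for RRM2 with the other 5, 0.67 to 0.75 for CCNE1 with CLSPN, FEN1, MCM2 and MCM5, and 0.95 to 0.97 between CLSPN, FEN1 and MCM5. That of CCND3 with the 6 genes turned positive, at 0.13 to 0.64. The genes most like the mean of the 5 replication genes were MCM10 (r = 0.99 over 8 arrays, 0.92 over the 6 transduced arrays), the uracil glycosylase UNG (0.99 and 0.88), DEPDC1B (0.99 and 0.90), WDHD1 (0.99 and 0.92) and KHSRP (0.99 and 0.85), out of 407 genes with an r over 0.9.

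For CCNE1 the closest were ZNF668 (0.996 and 0.987), the adenosine kinase ADK (0.99 and 0.96), NUDCD1 (0.98 and 0.92), RAD23B (0.98 and 0.93) and IPO5 (0.98 and 0.89). For CCND3 they were TRIM22 (0.96 and 0.92), IL17RA (0.96 and 0.93), LIAT1 (0.96 and 0.96), NEK9 (0.95 and 0.95) and EPHB4 (0.95 and 0.97). For CCND2, whose CCRF-CEM values lie under the filter level, they were GATA5 (0.99 and 0.99), BOLA1 (0.97 and 0.99), COG4 (0.96 and 0.96), DOCK3 (0.95 and 0.96) and OSBPL1A (0.94 and 0.94), with GATA5 and DOCK3 close to the filter level at means of 5.52 and 5.26.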

How the data were processed

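The series has 8 Affymetrix arrays of 2 T-ALL lines. The authors deposited a log2 intensity for every probe set on every array (the log2 scale is inferred from the range); how they summarized and normalized the probes is not given in the sources used here. Array medians spanned 4.62 to 4.71. As the normalization is not known and may itself have evened out the medians, they cannot show whether a shift common to all genes was present. Symbols came from the platform annotation: 16098 of 53617 probe sets had 1 symbol, 37519 none and 0 several. For genes with several probe sets (779) the one with the highest mean was used, for CLSPN and CCND2 among the 8 described. Genes whose mean reached the 40th percentile (5.18) numbered 8930 and were tested with limma 3.58.1 (R 4.3.3; eBayes without trend) and Benjamini-Hochberg adjustment over all of them, and called at 0.05. Fits used all 8 arrays with line as a term: shTOX or not (also for the lines); transduced or not; shTOX, scramble and untransduced; the 4 constructs; and means per line and state for differences between lines. Values after ± are standard errors unless marked SD. The fits were run on simulated data with planted differences and independent noise. That check required the median estimate to lie near the planted size. It does not show how far the calls depend on single arrays. Beyond the 8, named genes were up to 4 called per list by size (3 for the lines), or else up to 2 by smallest p, and the 5 genes of highest line-centred correlation. Of those the rule gives without calls, only some are printed; DCK and E2F8 for the hairpins were picked after their values were seen. Genes, lists and comparisons were chosen with earlier results of these data known. Alternatives were filters, quantile normalization, mean of probe sets, a trend, a construct block and leaving out arrays. The number of arrays limits the precision.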

Additional observations from a re-analysis of the deposited data

Results flagged for a closer look

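Within the 4 arrays of a line, an array was singled out where its gap to the nearest other array as a share of the range of the 4 exceeded Dixon's 95% critical value. Of the 16 combinations of gene and line, 5 did, each through the untransduced array. Over all 8930 tested genes any of the 4 arrays met this rule in 6.27% of genes in CCRF-CEM and 5.45% in HPB-ALL, where chance gives 5%. That 5% is for any array and not for the untransduced one. The untransduced array alone met it in 3.76% and 2.39%. It was the array singled out in 336 of 560 such genes in CCRF-CEM and 213 of 487 in HPB-ALL, more than an even share among the 4 arrays. The 8 genes were chosen with the gap between transduced and untransduced arrays known, so their count is a description and no test. In CCRF-CEM these were FEN1 (0.983 of the range), CLSPN (0.915) and RRM2 (0.8295), where that array was the lowest, and CCND3 (0.929), where it was the highest. In HPB-ALL it was RRM2 (0.971), the lowest.

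The lines lay on opposite sides of scramble for CCND2. Both shTOX arrays of CCRF-CEM were above it (0.41 and 0.31) and both of HPB-ALL below it (-0.12 and -0.04), a gap of 0.44 between the line means. This difference between the lines was not tested, and the CCRF-CEM levels lie under the filter level.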

How the results depend on the processing

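Leaving out 1 array at a time, the number of genes called was 12 to 1095 for transduced against untransduced (984 with all arrays), 3 to 90 for scramble against untransduced (95), 1817 to 2471 for the lines (2443), 0 to 4 for shTOX against controls (0), 0 for shTOX against scramble, 0 to 2 for the hairpins, 0 to 8 for the shTOX difference between lines and, over the 6 fits without a transduced array, 4 to 9 for the transduction difference between lines (6), which cannot be fitted without either untransduced array. Among genes around the set called higher in transduced arrays it was 0 to 26 (23), and among G2 and mitosis genes 2 to 20 (20), both chosen after seeing the data. The lowest counts of transduced against untransduced came without the CCRF-CEM untransduced array. Scramble against untransduced called 162 genes with the filter at the 60th percentile and 182 with a trend. The transduction difference between lines called 12 without a filter and 0 at the 60th percentile. With the construct as a replicate block shared by both lines, shTOX against controls called 16 genes and scramble against untransduced 9, with none of the 8 among them; transduced against untransduced called 923, with 6 of the 8, and the lines 2907, with 4 of the 8. The deviations of same-construct arrays correlated between lines at 0.24 for shTOX-1, 0.38 for shTOX-2, -0.08 for scramble and 0.57 for untransduced arrays. The highest correlation with a different construct was 0.19, 0.17, 0.19 and -0.09 in that order. The same-construct value was thus the higher one except for scramble, so the constructs pair the arrays only in part. No difference of the 8 genes that passed in its fit turned its sign under the alternatives run. Counted over all 8 genes, passed or not, 16 of 103 values turned for the shTOX difference between lines and 9 of 103 for the hairpins. The count was 5 of 87 for the transduction difference between lines and 3 of 111 for shTOX against scramble. It was 3 of 111 for the lines, 2 of 111 for scramble against untransduced and 1 of 119 for shTOX against controls. With the filter at the 60th percentile CCND2 was not tested. The cause of these changes was not tested. The CLSPN difference between transduced and untransduced arrays was 0.52 with the mean of its probe sets, 1 of which is dim (3.13 to 3.42), against 1.08.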
